A study of Mus musculus with 6 samples.

Results

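The genes described here are 10 members of the bone morphogenetic protein (BMP) and activin pathways, taken by name among the 24077 genes of the single-cell table and the 30828 genes of the spatial tables, and all 10 were present in both. They comprise the ligand genes Bmp2, Bmp4, Bmp7, Inhba and Inhbb, the inhibitor genes Nog and Fst, and the target genes Id1, Id2 and Id3. They were measured in uteri of female CD-1 mice at 12 months of age. The mice had been injected subcutaneously on neonatal days 1 to 5 with corn oil alone (CO) or with diethylstilbestrol (DES), a synthetic estrogen, at 1 mg/kg/day. No group carried a transgene or a deletion. CO uteri were collected at estrus, the stage in which DES-exposed mice persist. Dissociated cells of 2 CO uteri and of 4 DES uteri were pooled into 1 single-cell library per condition, so that no spread between mice could be measured in these cells. Spatial transcriptomes (Visium, in which each spot takes up RNA from several neighboring cells) were measured in 2 CO and 2 DES sections, A and B, of 1 mouse each.

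BMPs and activins are secreted dimers of the TGF-β family. BMPs signal through SMAD1, SMAD5 and SMAD9 and induce the Id genes, whose products bind helix-loop-helix transcription factors and block their binding to DNA. Activins are dimers of the subunits that Inhba and Inhbb encode and signal through SMAD2 and SMAD3, and the same subunits form inhibins when joined to the product of Inha. Noggin, encoded by Nog, binds BMPs, and follistatin, encoded by Fst, binds activins with high affinity. In the uterus, Bmp2 is known for its role in decidualization of the stroma, and Bmp7 and activin signaling are known for their roles in implantation.

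All 10 members are protein-coding genes in the GENCODE annotation of GRCm38, the build (mm10) on which the reads were counted. Of the ligand genes, Bmp2 lies at chr2:133552159-133562885 on the plus strand, Bmp4 at chr14:46383520-46390669 on the minus strand, and Bmp7 at chr2:172868012-172940321 on the minus strand. The activin subunit gene Inhba lies at chr13:16011851-16031621 on the plus strand, and Inhbb at chr1:119415465-119422248 on the minus strand. Nog lies at chr11:89300638-89302332 and Fst at chr13:114452290-114458951, both on the minus strand. The 3 target genes lie at chr2:152736251-152737410 (Id1, plus), chr12:25093799-25097140 (Id2, minus) and chr4:136143497-136145755 (Id3, plus).

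The 250 bases before the RefSeq transcription start were searched on both strands for GGCGCC, a GC-rich element that BMP-regulated SMADs are known to bind, and for CAGAC, the core SMAD-binding element, because the Id genes are known BMP targets. RefSeq promoters on GRCm38.p6 were held for 5 of the 10 members. Id2 held 1 GGCGCC, starting 231 bases before its RefSeq start, an element present in 9.59% of 32851 promoters. Id3 held 2 copies of CAGAC, starting 68 and 167 bases before its RefSeq start, an element present in 42.2% of all promoters. For both genes the GENCODE span given above begins farther upstream than the RefSeq start, so that these elements lie inside the annotated gene, and both Id3 copies lie in stretches that overlap an Id3 exon. Bmp4, Inhba and Inhbb held neither sequence in this window. The 30 bases around the Id2 element are printed with the element in capitals, read 5′ to 3′ on the minus strand at chr12:25096306-25096335, a stretch that overlaps no annotated exon.
Id2: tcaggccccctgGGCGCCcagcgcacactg

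The CO library held 32387 cells and the DES library 16312 cells, of which the authors' annotation names a type for all but 20134 and 6611. Levels are given as unique molecular identifiers (UMIs) of a gene per 1e+06 UMIs of the same cells (CPM), with exact Poisson 95% intervals in brackets. Intervals cover counting error only and not differences between mice. A level was compared over the 14 combinations of cell type and library with at least 50 cells. These were mesothelial (6866 CO and 3837 DES cells), epithelial (2583 and 5255), myeloid (67 and 228) and lymphocyte (423 and 239) cells in both libraries. Stromal cells (1326), cells named for Ctla2a (465), endothelial cells (341), myocytes (85) and pericytes (75) reached that size in CO, and a myeloid type named for high Lyz2 (136) in DES. DES held 1 stromal cell, 5 endothelial cells and no myocyte, so that the types with the highest levels of several members could not be compared between conditions in single cells. A few labels sat beside markers of other types. Cells labelled lymphocytes carried Cd3e at 81.0 CPM in CO and 107 CPM in DES, but also the myeloid gene Lyz2 at 3121 and 8351 CPM. CO cells labelled myeloid carried 4 mesothelial markers at 14.8% to 30.5% of their mesothelial level, against 1.42% to 2.08% in DES. The libraries shared 180 cell barcodes, of which 32 had a named type in both.

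The ligand genes were highest in mesothelial and stromal cells. Bmp2 stood at 69.3 CPM [67.3 to 71.3] in DES mesothelium and 64.8 CPM [60.2 to 69.5] in CO stroma, values whose intervals overlapped. It stood at 42.2 CPM [40.8 to 43.6] in CO mesothelium, and at 34.1 and 32.9 CPM in CO and DES myeloid cells, which did not differ beyond their intervals. Epithelium held almost none, with 1.08 CPM in CO and 0.477 CPM in DES. Bmp4 was a gene of the mesothelium, the cell layer that covers the uterus, at 210 CPM [207 to 214] in DES and 190 CPM [187 to 193] in CO. CO myocytes followed at 54.7 CPM [41.8 to 70.4]. Thinned to 3000 UMIs per cell, 43.2% of DES mesothelial cells (95% Clopper-Pearson interval 41.6 to 44.8) and 40.9% of CO mesothelial cells (39.8 to 42.1) held a Bmp4 UMI. The share was 0.781% in CO epithelium, where the median depth of 23458 UMIs exceeded the 10436 UMIs of CO mesothelium. Without thinning the shares were 82.2%, 75.7% and 5.57%.

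Bmp7 was carried by cells of the CO stromal compartment. Stromal cells held 64.3 CPM [59.8 to 69.1] and Ctla2a cells 33.3 CPM [26.9 to 40.8], and no other group passed 3.49 CPM, the level of CO mesothelium. No Bmp7 UMI was found in CO myeloid cells, DES myeloid cells, Lyz2-high myeloid cells, myocytes or pericytes. Inhba was likewise highest in stromal cells, at 81.7 CPM [76.6 to 87]. The Lyz2-high myeloid cells of DES came next at 31.4 CPM [24.5 to 39.7], with a level that overlapped the 28.4 CPM [13.6 to 52.2] of pericytes. The other DES myeloid cells held 1 UMI of Inhba, or 0.490 CPM.

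Inhbb had the steepest order of the ligand genes. It stood at 714 CPM [699 to 729] in CO stromal cells, 150 CPM [128 to 174] in myocytes and 45.4 CPM [25.9 to 73.7] in pericytes. After thinning, 80.8% of stromal cells (78.6 to 82.9) and 34.5% of myocytes (24.5 to 45.7) held a UMI, against 2.58% (1.12 to 5.02) of CO lymphocytes, and without thinning 94.2%, 76.5% and 3.78%. The median depth was 8726.5 UMIs in stromal cells, 11282 in myocytes and 4033 in lymphocytes. CO mesothelium stood at 28.0 CPM [26.9 to 29.2] and CO epithelium at 18.5 CPM [17.6 to 19.5]. None of the 5 DES groups passed 2.85 CPM.

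The inhibitor genes shared a leading cell type. Nog reached 266 CPM [248 to 286] in Ctla2a cells, 10.1 CPM [8.40 to 12.1] in stromal cells and at most 8.51 CPM in any other group. Fst stood at 177 CPM [162 to 194] in Ctla2a cells, 31.4 CPM [30.04 to 32.8] in DES mesothelium and 23.9 CPM [22.9 to 25.02] in CO mesothelium. After thinning, 44.6% of Ctla2a cells held a Nog UMI and 30.5% an Fst UMI, against 1.92% and 1.23% of stromal cells, and without thinning 58.9% and 43.2% against 5.81% and 2.71%. Ctla2a cells had a median of 5763 UMIs. They also carried Wt1 at 243 CPM, Pdgfra at 213 CPM and Dpt at 184 CPM, the first a mesothelial and the others stromal markers. They lay in the CO library, so that these inhibitor levels had no DES counterpart.

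**Figure D1:**
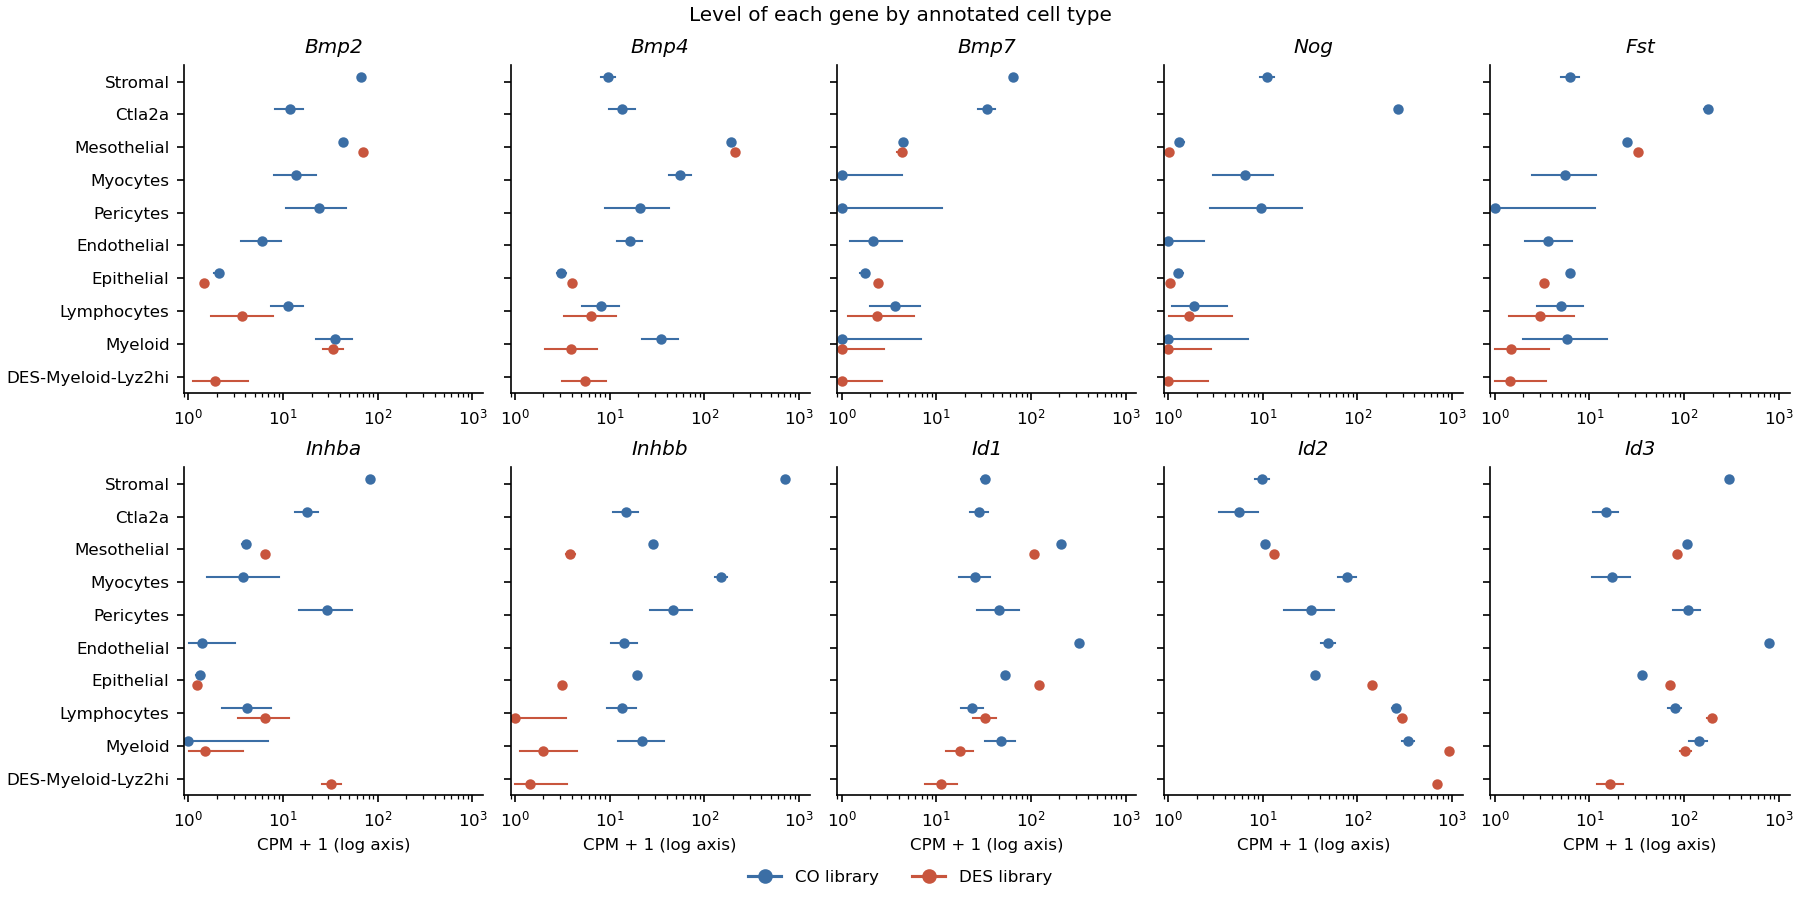
Level of each of the 10 members (CPM + 1, logarithmic axis) in each combination of cell type and library with at least 50 cells. The 5 ligand genes led in mesothelial or stromal cells, Nog and Fst in Ctla2a cells, Id1 and Id3 in endothelium and Id2 in myeloid cells.

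The 3 target genes led in other cells than the ligand genes. Id1 was highest in CO endothelium at 319 CPM [298 to 341], followed by CO mesothelium at 207 CPM [204 to 210], DES epithelium at 119 CPM [118 to 121] and DES mesothelium at 106 CPM [104 to 109]. DES epithelium here includes the basal cells described below, and its non-basal cells stood at 97.0 CPM. Id3 was also highest in CO endothelium, at 784 CPM [751 to 819], where 70.5% of thinned cells (65.2 to 75.4) and 84.2% of unthinned cells held a UMI at a median depth of 6309 UMIs. Its next level was 296 CPM [286 to 306] in CO stromal cells. Id2, which is known for its role in innate lymphoid and dendritic cells, was highest in immune cells. It stood at 925 CPM [884 to 968] in DES myeloid cells, 689 CPM [655 to 724] in Lyz2-high myeloid cells, 342 CPM [298 to 392] in CO myeloid cells, and 294 and 254 CPM in DES and CO lymphocytes. In Ctla2a cells Id2 was at 4.66 CPM [2.48 to 7.97] and in CO stromal cells at 8.86 CPM [7.24 to 10.7], and the intervals of these lowest levels overlapped.

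Within the epithelium, the levels of the target genes spread widely over the authors' clusters, 15 in CO and 16 in DES. These counts also defined the clusters, and the levels are therefore described without a test. Id1 ranged from 5.51 to 87.8 CPM over CO clusters (median 48.0) and from 48.1 to 313 CPM over DES clusters (median 83.8). Id2 ranged from 17.3 to 153 CPM in CO (median 37.7) and from 53.4 to 354 CPM in DES (median 129). For each of these genes, 7 of the 16 DES clusters lay above the highest CO cluster. Id3 ranged from 12.8 to 56.8 CPM in CO (median 28.5) and from 16.8 to 213 CPM in DES (median 37.4), with 5 of 16 DES clusters above the highest CO cluster. The same DES cluster, number 9, held the highest Id1 and Id3, whereas Id2 was highest in DES cluster 8. In CO, the clusters that the study names glandular held less Id1 than those it names luminal, 14.7 CPM [12.3 to 17.5] against 57.0 CPM [55.2 to 58.8], and less Id3, 20.2 against 36.8 CPM. Id2 had the opposite order, 45.7 CPM [41.3 to 50.4] against 31.8 CPM [30.5 to 33.2], and was highest in CO cluster 13, which the study names mature glands.

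Inhbb and Fst also varied among clusters. Inhbb ranged from 10.7 to 86.5 CPM over CO clusters, highest in cluster 13, and from 0.328 to 8.87 CPM over DES clusters, so that all 16 DES clusters lay below the lowest CO cluster. Fst reached 54.9 CPM [44.5 to 66.9] in CO cluster 12, the 71 cells that the study names epithelial stem cells, from 97 UMIs, while the median CO cluster stood at 1.53 CPM. No DES cluster passed 9.08 CPM of Fst. The other ligand and inhibitor genes stayed at or below 8.82 CPM in all 31 clusters.

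DES epithelium also held 483 basal cells, taken by the study's own cut of over 1 UMI each of Krt14 and Trp63. Id1 stood at 411 CPM [399 to 424] and Id3 at 297 CPM [286 to 307] in basal cells, above every epithelial cluster of either library. Id2, at 137 CPM [130 to 145], lay within the range of DES clusters. Fst stood at 22.1 CPM [19.3 to 25.3] and Bmp4 at 14.5 CPM [12.2 to 17.0], against 0.841 and 2.27 CPM in non-basal DES epithelium, and Inhbb at 0.708 CPM from 7 UMIs. The study also names clusters 8 and 11 of its integrated clustering basal cells. Their DES cells, 351 and 257, were taken whole and not by that cut, so that they are not a division of the 483 cells. Id1 stood at 591 CPM [573 to 610] in cluster 8 and 190 CPM [177 to 204] in cluster 11. Id3 followed at 414 and 165 CPM, and Fst at 33.5 and 9.65 CPM.

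**Figure D2:**
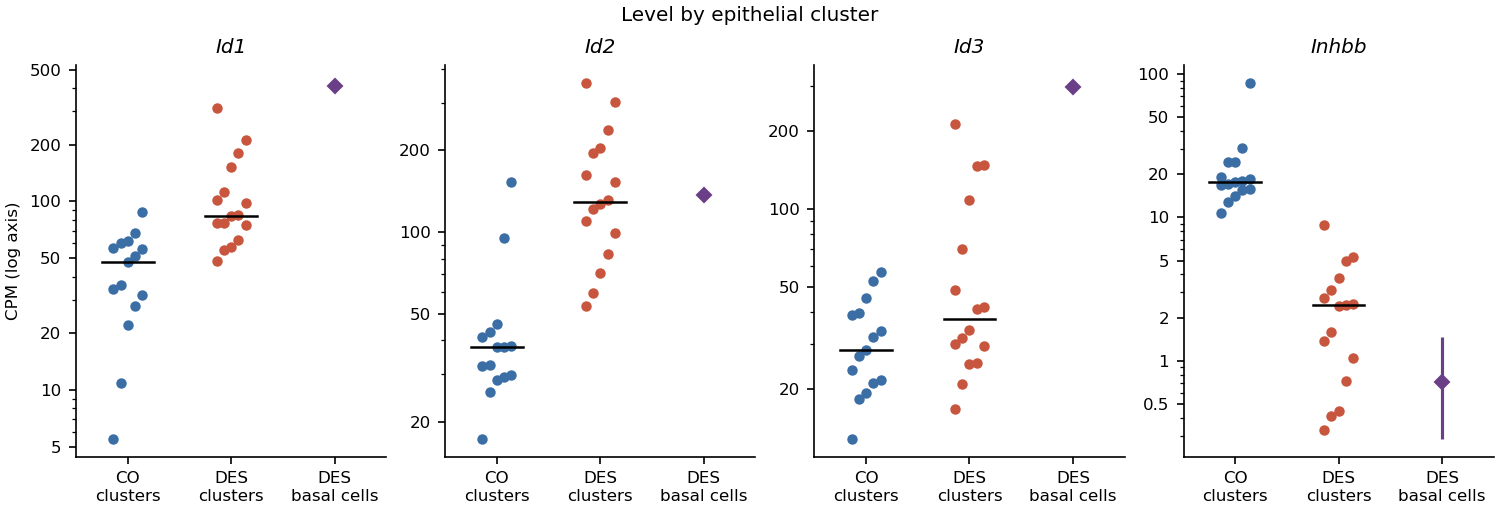
Level (CPM, logarithmic axis) of Id1, Id2, Id3 and Inhbb in each of 15 CO and 16 DES epithelial clusters, with the median as a line and DES basal cells as a diamond with their Poisson 95% interval. All DES clusters sit below all CO clusters for Inhbb, and basal cells sit above all clusters for Id1 and Id3.

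DES and CO were then compared within the 4 cell types that both libraries held. With 1 library per condition there is no test, and genes with a mean of at least 5 CPM were counted as past 2-fold or not. In non-basal epithelium, 4 members reached that mean and 2 were past 2-fold, 1 higher and 1 lower in DES, against 14.6% of all genes counted (7.35% higher and 7.23% lower). Id2 was 4.04 times as high in DES (95% Poisson interval 3.88 to 4.21), at 140 against 34.7 CPM. Id1 was 1.87 times as high (1.81 to 1.94), at 97.0 against 51.8 CPM, and Id3 1.57 times (1.5 to 1.64), at 54.3 against 34.7 CPM, both short of 2-fold. The count of 2 members past 2-fold became 3 as a mean over cells or in thinned cells. After thinning, the share of cells with an Id2 UMI was 29.0% in DES (27.7 to 30.4) and 10.1% in CO (8.97 to 11.3), against 1.59% of Ctla2a cells, with 49 DES and 21 CO cells too shallow to enter. Without thinning it was 78.3% and 49.1%, at median depths of 24663.5 and 23458 UMIs, against 2.58% of Ctla2a cells. Inhbb was lower, at 2.25 against 18.5 CPM, a ratio of 0.122 (0.108 to 0.136). Fst, at 0.841 against 5.24 CPM, did not reach the mean of 5 CPM. Neither did Bmp2, Bmp4, Bmp7, Nog and Inhba, which stood between 0.0244 and 2.27 CPM.

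In mesothelium, 7 members were counted and 1 was past 2-fold, lower in DES, against 4.21% of all genes (1.92% higher and 2.30% lower). Inhbb stood at 2.85 CPM in DES and 28.0 CPM in CO, a ratio of 0.102 (0.0870 to 0.118). Id1 was at 0.514 (0.4995 to 0.528) of its CO level, just inside 2-fold, and Id3 at 0.795 (0.768 to 0.822), so that these target genes were lower in DES mesothelium and higher in DES epithelium. Bmp2 stood at 1.64 times (1.57 to 1.72), Fst at 1.31 times, Id2 at 1.26 times and Bmp4 at 1.11 times its CO level. Bmp7, Nog and Inhba did not reach the mean.

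In myeloid cells, of which CO held 67, 6 members were counted and 4 were past 2-fold, 1 higher and 3 lower in DES, against 28.0% of all genes (5.03% higher and 23.0% lower). Id2 was 2.70 times as high in DES (2.34 to 3.13). Id1 stood at 0.354 of its CO level (0.210 to 0.603), from 34 UMIs in DES and 29 in CO, at 16.7 against 47.1 CPM beside the 207 CPM of CO mesothelium. Bmp4 stood at 0.0863 (0.0285 to 0.221), from 6 and 21 UMIs, and Inhbb at 0.0465 (0.00509 to 0.205), from 2 and 13 UMIs. The Bmp4 level of CO myeloid cells was 18.0% of the CO mesothelial level, within the 14.8% to 30.5% of the 4 mesothelial markers in the same cells, and in DES it was 1.40% beside markers at 1.42% to 2.08%, and the part of those markers in the differences of Bmp4, Id1 and Inhbb was not tested. Bmp2, at 0.964 (0.583 to 1.66), and Id3, at 0.726 (0.563 to 0.943), were not past 2-fold.

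In lymphocytes, 6 members were counted and 3 were past 2-fold, 1 higher and 2 lower in DES, against 12.0% of all genes (6.65% higher and 5.34% lower). Id3 was 2.48 times as high in DES (2.05 to 3.01), at 194 against 78.3 CPM. In the same cells Lyz2 stood at 8351 CPM in DES and 3121 CPM in CO. Of the 4 stromal markers, Vcan stood at 21.4% of its stromal level in DES and 6.43% in CO. The other stromal markers, Dpt, Col6a3 and Pdgfra, went the other way, at 0% to 0.332% in DES and 2.68% to 2.85% in CO. The part of cells or RNA of other types in the lymphocyte values was not tested. Bmp2 stood at 0.262 (0.0660 to 0.768) of its CO level from 4 and 23 UMIs. Inhbb had 28 UMIs in CO and 0 in DES, which against a floor of 3 UMIs over the DES cells is at most 0.162 of the CO level. Id1, Id2 and Bmp4 stood at 1.36, 1.16 and 0.755 times their CO level. As a mean over cells or in thinned cells 1 of the 3 stayed past 2-fold: Id3 had log2 ratios of 0.998 and 0.995, just short of it, and Bmp2 (mean over cells) or Inhbb (thinned cells) no longer reached the mean of 5 CPM. The median log2 ratio over the members counted was 0.78 in epithelium, 0.15 in mesothelium, -0.98 in myeloid cells and -0.10 in lymphocytes, beside 0.08, -0.02, -0.39 and 0.15 over all genes counted.

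Inhbb was the member that was lower in DES in all 4 cell types. Its level in CO epithelium was 2.59% of that in CO stromal cells, and in CO mesothelium, myeloid cells and lymphocytes 3.93%, 2.96% and 1.75%. In DES the same quantities, still relative to CO stromal cells, were 0.302%, 0.399%, 0.137% and 0%. Markers of stromal cells moved in the same direction in epithelium: Dpt, Vcan, Col6a3 and Pdgfra stood at 0.368% to 0.643% of their stromal level in CO epithelium and at 0% to 0.153% in DES epithelium, where Dpt was at 0. In mesothelium the markers differed among themselves: Dpt stood at 0.708% in CO and 0.0818% in DES and Col6a3 at 5.48% and 3.23%, but Vcan at 2.30% and 1.89% and Pdgfra at 1.18% and 1.15%. In lymphocytes Dpt, Col6a3 and Pdgfra stood at 2.68% to 2.85% in CO and 0% to 0.332% in DES, and Vcan at 6.43% in CO and 21.4% in DES. In myeloid cells, from at most 4 UMIs each in DES, the 4 markers stood at 0% to 2.89% in CO and 0% to 0.236% in DES, Vcan having 0 UMIs in CO and 1 in DES. The DES library held almost no stromal cells, and the part that RNA of stromal cells had in the Inhbb values of other types was not tested.

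**Figure D3:**
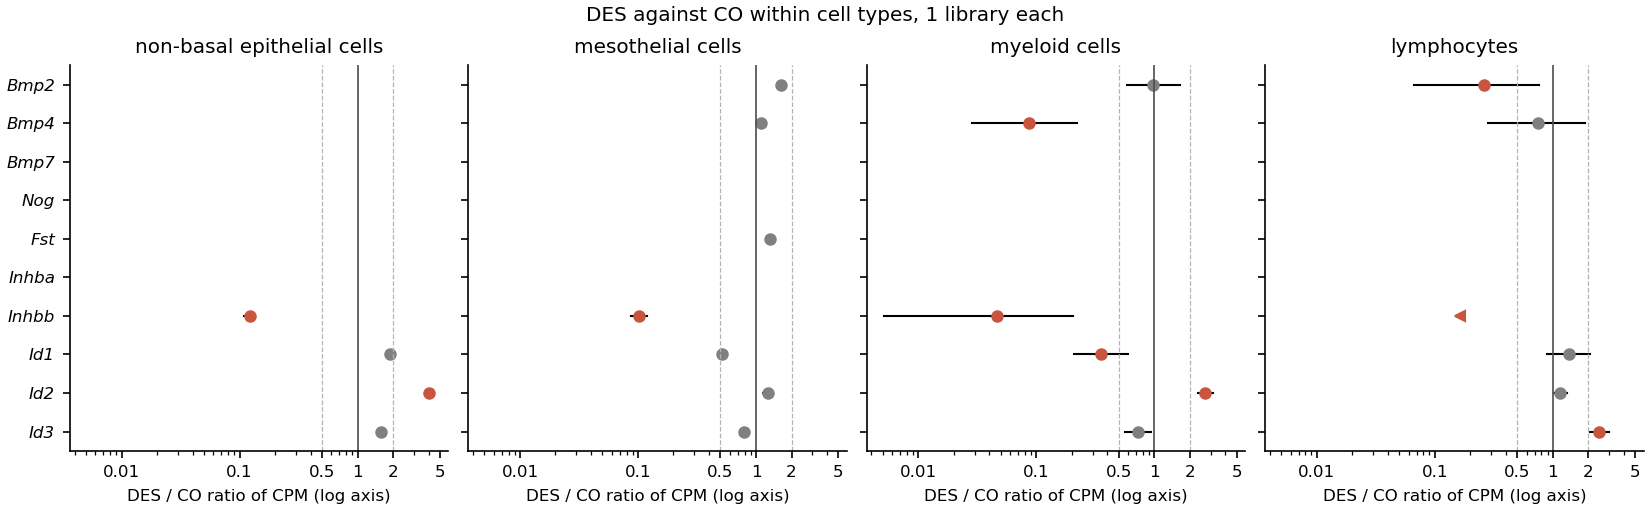
Ratio of the level in DES to that in CO (logarithmic axis, with 95% Poisson intervals) for members with a mean of at least 5 CPM in 4 cell types. Colored points are past 2-fold (dashed lines at 0.5 and 2) and gray points are not. The triangle marks the ratio of 0.162 for Inhbb in lymphocytes, set by the floor used for 0 UMIs. Inhbb is the member left of 0.5 in all 4 panels.

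The sections gave the tests that the single cells could not, since each section came from 1 mouse. The study reports a large fold in the tissue of CO B and limits in telling clusters apart in DES B. For most of its analyses it used 1 section per group, whereas all 4 sections are used here. The sections held between 9117099 and 12506177 UMIs over 1357 to 1834 spots. For each section, UMIs were added up over all spots, over the cluster that the study names stroma (101 to 211 spots), and over the 15% of spots with the highest score for epithelial or for muscle markers. Each sum was tested with the quasi-likelihood test of edgeR, adjusted by the Benjamini-Hochberg method over all genes. An exact permutation test of 2 against 2 sections cannot give a two-sided p below 0.333, so the p-values depend on a spread that edgeR estimates across genes. In bulk sums of this kind, fewer cells of a type and less RNA per cell cannot be told apart. In DES sections the 3 basal markers summed to 5644 to 9526 CPM, against 3.36 to 160 CPM in CO, and 5 muscle markers to 2793 to 3242 CPM against 12547 to 12834 CPM.

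Over whole sections all 10 members were tested and edgeR called none at an adjusted p of 0.05, against 5.30% of 14098 genes (2.67% higher and 2.63% lower in DES). At an unadjusted p under 0.05 there were 4, beside 3438 of the 14098 genes, and DESeq2 called 2, Id1 and Id3, beside 1791 genes. Id1 stood at 69.1 CPM in CO A and 25.8 CPM in CO B, against 348 CPM in DES A and 247 CPM in the DES B section. Both DES sections lay above both CO sections, with a log2 difference of 2.42 ± 0.52 (SE, n = 2 sections per group, edgeR adjusted p = 0.0709). Id3 stood at 45.7 and 76.3 CPM in CO A and CO B and at 287 and 152 CPM in DES A and DES B, again without overlap, a log2 difference of 1.63 ± 0.39 (edgeR adjusted p = 0.0858). Id2 had the other sign, with 60.8 and 77.0 CPM in CO and 60.1 and 46.6 CPM in DES (log2 difference -0.58 ± 0.20, edgeR adjusted p = 0.173). In the spots with at most 2 UMIs of basal markers the sign turned, to a log2 difference of 0.12 (edgeR adjusted p = 0.883).

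Of the ligand and inhibitor genes over whole sections, Fst separated the groups, at 1.68 and 3.53 CPM in CO and 8.45 and 6.88 CPM in DES, with a log2 difference of 1.35 ± 0.44 (edgeR adjusted p = 0.148). In the spots with few basal UMIs, where the DES sections held 1 and 2 UMIs of Fst, the difference was -0.37 (edgeR adjusted p = 0.899). Bmp4 was at 5.84 and 5.62 CPM in CO and 8.67 and 11.6 CPM in DES (log2 difference 0.62 ± 0.29, edgeR adjusted p = 0.272). In the spots with few basal UMIs its difference was 1.97 (edgeR adjusted p = 0.171), from 14 and 20 UMIs in DES. Inhbb was spread widely within CO, at 457 CPM in CO A and 85.3 CPM in CO B, around the 200 CPM of DES A and the 118 CPM of DES B. Its log2 difference of -1.01 ± 0.80 (edgeR adjusted p = 0.510) turned to 0.70 without CO A. Bmp2, Bmp7, Nog and Inhba had adjusted p-values of 0.410, 0.799, 0.433 and 0.537 and log2 differences between -0.85 and 0.72. The median log2 difference was 0.39 over the members and -0.01 over all genes tested. Without 1 section the log2 difference ran from 1.87 to 3.33 for Id1, from 0.926 to 1.95 for Fst and from -1.77 to 0.70 for Inhbb. That of Id3 stayed positive. Calls of single members in these fits are not read here, because calls over all genes also moved widely between them.

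In stromal spots 6 members passed the filter on low counts and 1 was called, against 1.47% of 8914 genes (0.796% higher and 0.673% lower). Id1 rose, from 53.7 and 35.8 CPM in CO A and CO B to 284 and 165 CPM in DES A and DES B, a log2 difference of 2.30 ± 0.37 (edgeR adjusted p = 0.0337). Id3 was at 106 and 134 CPM in CO and 605 and 297 CPM in DES (1.84 ± 0.37, edgeR adjusted p = 0.0552), without overlap of the groups but short of the threshold. The Id1 call was lost in the top 15% of spots by stromal markers (edgeR adjusted p = 0.112). It was also lost in some fits without 1 section, where the log2 difference ran from 1.93 to 2.56. Inhba was at 10.7 and 6.50 CPM in CO and 32.5 and 26.0 CPM in DES, from 6 to 33 UMIs per section (1.77 ± 0.51, edgeR adjusted p = 0.154). Inhbb, at 877 and 65.0 CPM in CO and 575 and 346 CPM in DES, had a log2 difference of -0.07 ± 0.87 (edgeR adjusted p = 0.985). Without 1 section it ran from -0.97 to 2.73.

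Bmp7 in stromal spots, at 80.6 and 52.0 CPM in CO and 86.7 and 40.4 CPM in DES, and Id2, at 57.3 and 50.9 CPM in CO and 66.0 and 60.6 CPM in DES, differed by -0.05 ± 0.41 and 0.18 ± 0.32 on the log2 scale. The groups overlapped for Bmp7 and not for Id2, and neither was called. Bmp2, Bmp4, Nog and Fst had 0 to 10 UMIs per section in these spots and were not tested. The stromal spots of DES also held basal markers at 1998 to 7058 CPM, against 0 to 90.0 CPM in CO, where all 3 were at 0 in CO A, and muscle markers at 2530 to 7422 CPM against 388 to 618 CPM. In DES B, 43 of the 132 stromal spots were also among the muscle-rich spots. In the stromal spots with at most 2 UMIs of basal markers, 17 in DES A and 50 in DES B, Id1 was not called (log2 difference 1.81, edgeR adjusted p = 0.229) and Id3 stood at 1083 and 408 CPM against 106 and 138 CPM in CO (2.42, edgeR adjusted p = 0.0948).

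In epithelium-rich spots 8 members were tested and 1 was called, against 7.50% of 11520 genes (4.61% higher and 2.89% lower). Id3 rose, from 21.5 and 24.8 CPM in CO to 187 and 102 CPM in DES, a log2 difference of 2.32 ± 0.33 (edgeR adjusted p = 0.0220). The call was lost without either DES section, where calls over all genes also fell. The Id3 difference ran from 1.86 to 2.68 without 1 section. Id1 was at 96.2 and 24.2 CPM in CO and 380 and 281 CPM in DES, without overlap (2.12 ± 0.63, edgeR adjusted p = 0.105). Its difference ran from 1.45 without CO B to 3.48 without CO A. Fst had 0 and 4 UMIs in CO and 18 and 27 UMIs in DES, or 0 and 1.27 CPM against 7.99 and 12.9 CPM (3.75 ± 0.94, edgeR adjusted p = 0.0730). The fitted difference ran from 2.71 without CO A to 7.68 without CO B, which leaves a CO section with 0 UMIs, and is no bound. Bmp4 was at 0.530 and 3.18 CPM in CO and 9.32 and 7.64 CPM in DES (1.92 ± 0.73, edgeR adjusted p = 0.171). Its difference ran from 1.12 without CO A to 3.57 without CO B.

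The other members of these spots did not separate the groups to that degree. Id2 was at 46.6 and 58.8 CPM in CO and 50.6 and 38.7 CPM in DES, a log2 difference of -0.55 ± 0.23 (edgeR adjusted p = 0.205). Inhbb was at 185 and 63.9 CPM in CO and 84.3 and 47.8 CPM in DES (-1.25 ± 0.56, edgeR adjusted p = 0.228). Its difference ran from -1.82 to -0.24 without 1 section. Bmp7 and Inhba differed by -0.19 ± 0.36 and 0.80 ± 0.93, and Bmp2 and Nog were not tested. Basal markers summed to 6575 to 9427 CPM in these spots of DES and to 4.24 to 185 CPM in CO. Their part in the values of Id1, Id3, Fst, Bmp4 and Bmp7, members higher in basal cells than in other DES epithelium, was not tested. Bmp7 stood at 3.84 CPM in basal cells and 1.27 CPM in non-basal DES epithelium.

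In muscle-rich spots 5 members were tested and 2 were called, against 2.51% of 9980 genes (1.67% higher and 0.832% lower). Id1 rose, from 20.6 and 13.96 CPM in CO to 87.4 and 72.1 CPM in DES (log2 difference 1.97 ± 0.31, edgeR adjusted p = 0.0186). Id3 rose, from 33.8 and 76.5 CPM to 285 and 198 CPM (1.89 ± 0.40, edgeR adjusted p = 0.0476). Its difference ran from 1.38 to 2.61 without 1 section, and it was not called without DES A. In the top 10% of spots neither gene was called, at edgeR adjusted p-values of 0.104 for Id1 and 0.17 for Id3. Bmp4, at 17.4 and 10.1 CPM in CO and 29.6 and 29.4 CPM in DES, separated the groups but was not called (0.87 ± 0.37, edgeR adjusted p = 0.296). Its difference ran from 0.55 to 1.28 without 1 section. Inhbb, at 775 and 78.8 CPM in CO and 310 and 326 CPM in DES, differed by -0.63 ± 0.76. The difference had opposite signs without CO A (1.75) and without CO B (-1.49). Id2, at 85.1 and 113 CPM in CO and 95.9 and 57.9 CPM in DES, differed by -0.61 ± 0.31 (edgeR adjusted p = 0.395), and by -0.98 to -0.29 without 1 section.

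In DES, basal markers were fewer in muscle-rich spots than in stromal or epithelium-rich spots. They summed to 1716 and 1794 CPM in DES and 1.59 and 7.26 CPM in CO. Restricted to muscle-rich spots with at most 2 UMIs of these markers, 126 in DES A and 102 in DES B, Id3 was at 294 and 235 CPM in DES against 33.8 and 76.5 CPM in CO and was called (log2 difference 2.06, edgeR adjusted p = 0.0485). Id1 was at 79.1 and 48.4 CPM in DES against 20.6 and 13.96 CPM in CO and was not called (1.68, edgeR adjusted p = 0.0857). Over whole sections in such spots, Id1 was at 138 and 76.5 CPM in DES against 69.1 and 23.8 CPM in CO (1.03, edgeR adjusted p = 0.433). The median log2 difference over the members tested was 0.98 in stromal, 1.36 in epithelium-rich and 0.87 in muscle-rich spots, beside 0.00, -0.02 and 0.00 over all genes tested. Some members passed the filter on low counts through their DES counts. These were Inhba in stromal spots, at 10.7 and 6.50 CPM in CO and 32.5 and 26.0 CPM in DES, and Fst and Bmp4 in epithelium-rich spots. The medians of those 2 regions therefore depend on which members entered and do not measure a shift of the set.

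**Figure D4:**
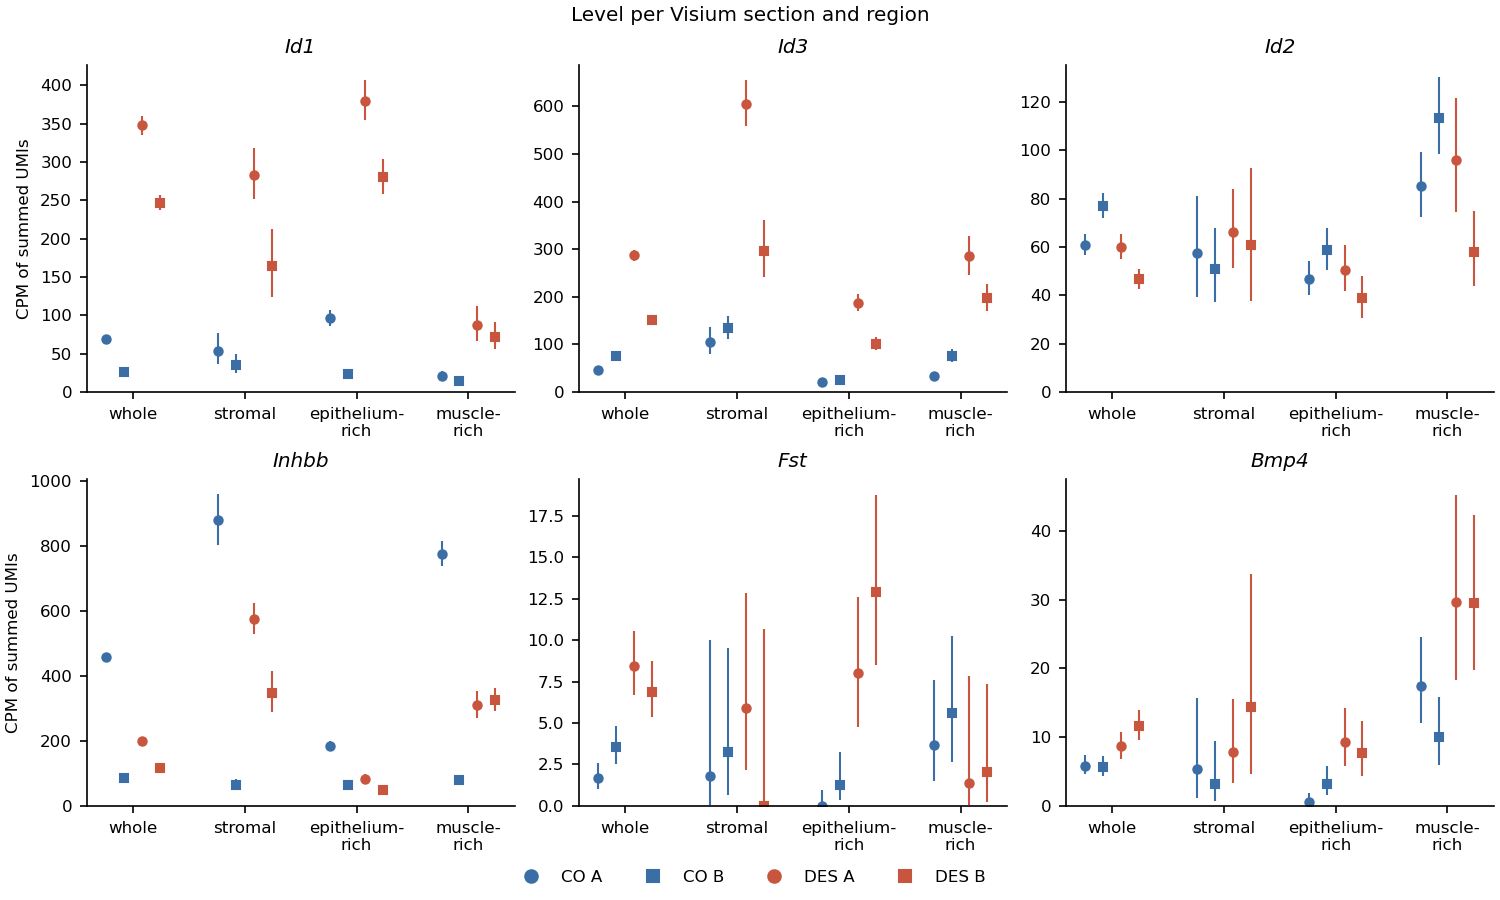
Level (CPM, with Poisson 95% intervals) of members in each section over whole sections and the 3 groups of spots. CO is drawn in blue and DES in red, with A as circles and B as squares. Id1 and Id3 of both DES sections sit above both CO sections in every region, and CO A sits above the other sections for Inhbb.

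Within sections, the members took different places, described per section and without a test because regions were chosen on the same counts. Bmp7 stood in stromal spots at 2.502 to 5.53 times its level in the other spots of the section, with an interval above 1 in 4 of 4 sections, and in muscle-rich spots at 0.0257 to 0.277 times, below 1 in 4 of 4. Bmp4 was higher in muscle-rich spots, at 2.11 to 4.63 times, in 4 of 4 sections. In stromal spots Bmp4 was at 0.557 to 1.25 times, with intervals that held 1 in each section. The 2 regions were not fully apart, since 43 stromal spots of DES B and 8 of DES A were also muscle-rich. Inhba was higher in stromal spots, at 1.62 to 4.67 times, with an interval above 1 in 3 of 4 sections. Inhbb was lower in epithelium-rich spots in 4 of 4 sections, at 0.322 to 0.681 times, and higher in stromal spots in 3 of 4, CO B being at 0.746 times.

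The target genes also differed in place. Id3 was at 1.89 to 2.46 times its level elsewhere in stromal spots and at 0.256 to 0.615 times in epithelium-rich spots, with intervals on those sides of 1 in 4 of 4 sections. Id1 was lower in muscle-rich spots, at 0.236 to 0.496 times, in 4 of 4 sections, and higher in epithelium-rich spots, at 0.911 to 1.68 times, with an interval above 1 in 3 of 4. Id2 was higher in muscle-rich spots, at 1.28 to 1.68 times, with an interval above 1 in 3 of 4 sections. Nog and Fst had 13 to 77 UMIs per section and intervals that held 1 in most regions.

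**Figure D5:**
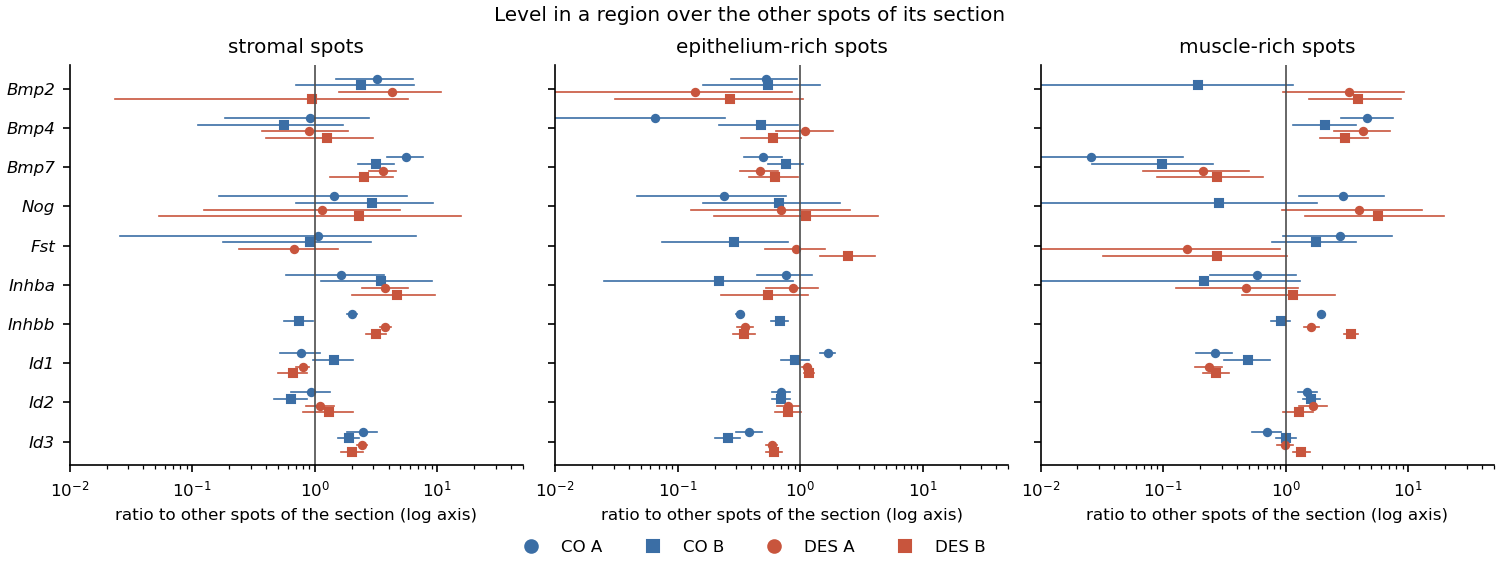
Ratio of each member's level in a region to that in the other spots of the same section (logarithmic axis, 95% Poisson intervals, cut at 0.01; sections with 0 UMIs in the region are not drawn). Bmp7 and Id3 lie above 1 in stromal spots and Bmp4 in muscle-rich spots in all 4 sections.

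A list of 51 other genes of the pathway was read beside the members. Over whole sections 37 were tested by edgeR. Msx2, a homeobox gene induced by BMPs, rose by 1.49 ± 0.20 (log2, edgeR adjusted p = 0.0308). Its relative Msx1 fell by 3.18 (log2, SE 0.33, edgeR adjusted p = 0.0212), from 77.7 and 87.1 CPM to 13.8 and 7.29 CPM, and the ligand gene Gdf5 fell by 2.87 (SE 0.34, edgeR adjusted p = 0.0253). In stromal spots 24 were tested and Msx1 fell by 2.81 (edgeR adjusted p = 0.0446). In epithelium-rich spots 29 were tested, of which Msx1 fell by 5.04 (edgeR adjusted p = 0.0154) and Id4, a relative of the target genes, rose by 4.11 ± 0.52 (edgeR adjusted p = 0.0179), from 0.795 and 2.86 CPM to 33.3 and 43.9 CPM. The single cells gave a smaller difference for Msx1. In non-basal epithelium it stood at 52.4 CPM in DES and 79.4 CPM in CO (0.660), not past 2-fold. In muscle-rich spots 27 were tested, of which Smad4, the partner shared by BMP and activin SMADs, fell by 1.58 (edgeR adjusted p = 0.0291).

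In single cells 49 genes of that list were present. In non-basal epithelium 20 were counted and 2 were higher in DES, Msx2 at 164 against 15 CPM (10.9 times, 10.3 to 11.6) and Smad6, an inhibitor that BMP signals induce, at 15.5 against 7.16 CPM (2.16 times, 1.97 to 2.37), beside 14.6% of all genes past 2-fold either way. In mesothelium 28 were counted, where 4.21% of all genes were past 2-fold. The inhibitor gene Chrdl1, at 68.0 against 31.1 CPM, was 2.18 times as high in DES, and Bmper, which encodes another BMP-binding protein, stood at 1.53 against 11.7 CPM (0.131). In lymphocytes 18 were counted, where 12.0% of all genes were past 2-fold, with Msx2 at 4.34 times (23 and 8 UMIs) and the receptor gene Bmpr1a at 0.444. In myeloid cells 18 were counted and 9 were lower, beside 23.0% of all genes, at 0.101 to 0.464 of their CO level from 3 to 60 UMIs in DES. The CO myeloid cells were those with mesothelial markers at 14.8% to 30.5% of their mesothelial level, against 1.42% to 2.08% in DES, and the part of these markers in the count was not tested. The 8 with the smallest ratios were Bmp6, Chrdl1, Acvr2a, Bmpr1a, Twsg1, Smad5, Bambi and Smad4, and Smad1 was the ninth.

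For each member, genes among the 3 most alike in level over the 14 groups of cell type and library were found by Pearson's r of log2(CPM + 1), as a description, since the groups share libraries. They were Gata6 (r = 0.971), Cdh3 and Zfpm2 for Bmp4, Enox1 (r = 0.968), Fgf10 and Tnfaip6 for Bmp7, and Spsb1 (r = 0.909), Negr1 and Oplah for Bmp2. For the activin subunits they were Ctsk (r = 0.869), Tmod1 and Dennd2a for Inhba and Ptpn5 (r = 0.8995), Iglon5 and Hsph1 for Inhbb. Nog was most like Pdzrn4 (r = 0.953), Gpc6 and Prtg, and Fst was like Slc6a2 (r = 0.911) and Vit. The target genes had no gene of their own set among the nearest 3: Efna1 (r = 0.940), Crip2 and N4bp3 for Id1, Gltp (r = 0.937), Tbc1d9 and RP23-29H5.3 for Id2, and Xaf1 (r = 0.889), Rfxap and Rxrb for Id3.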

How the data were processed

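Single cells were counted by the authors as UMIs per gene with Cell Ranger 3.0.1 on mm10, and the deposited counts are not normalized; the cell types and clusters are theirs. Visium spots were counted by the authors with Space Ranger 1.2.2, and the deposited counts are likewise raw. Doublets had been treated by the authors with scran, and no caller was run here. The labels give the condition of each sample, and the letters A and B name sections. UMIs were summed per cell type and library or per region and section, and no column of per-sample values was left unused. Shares of cells were computed after thinning cells to 3000 UMIs, leaving out shallower ones. Epithelium-rich and muscle-rich spots were the top 15% by marker score. Sums over sections were tested with edgeR 4.0.16 (TMM, filterByExpr, quasi-likelihood, Benjamini-Hochberg at 0.05) in R 4.3.3, after tests on simulated data, and again with DESeq2 1.42.0. Ratios of cells used genes with a mean of at least 5 CPM and a floor of 3 UMIs over a group.

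The 10 members and the lists of pathway and marker genes were chosen with earlier results of these data known. All members were described, pathway genes were named where called or past 2-fold (at most 8 per comparison by size), and the 3 genes most alike were found per member among those reaching 10 CPM. A few results that this rule gave are not reported here. Alternatives were other size factors, no filter, leaving out each section, the letter of the section as a block, other shares of spots, means over cells, other totals, and thinning to 5000 UMIs or none. Leaving out shared barcodes and spots with more than 2 basal-marker UMIs was added after the data were seen. Promoters came from RefSeq, and positions from GENCODE vM21.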

Additional observations from a re-analysis of the deposited data

Results flagged for a closer look

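Several members stood on opposite sides of their CO level in different cell types, with Poisson intervals that excluded a ratio of 1, and the difference between types was not tested, since there was 1 library per condition. Bmp2 was at 1.64 times its CO level in DES mesothelium and at 0.262 in lymphocytes. Bmp4 was at 1.11 times in mesothelium and 0.0863 in myeloid cells. Id1 was at 1.87 times in non-basal epithelium, 0.514 in mesothelium and 0.354 in myeloid cells. Id3 was at 1.57 times in non-basal epithelium and 2.48 times in lymphocytes, against 0.795 in mesothelium and 0.726 in myeloid cells. The CO myeloid cells carried mesothelial markers at 14.8% to 30.5% of their mesothelial level, against 1.42% to 2.08% in DES, and the part of these markers in the myeloid values was not tested. In DES lymphocytes the myeloid gene Lyz2 was at 8351 CPM, against 3121 CPM in CO. Vcan was at 21.4% of its stromal level there, against 6.43% in CO. The other stromal markers, Dpt, Col6a3 and Pdgfra, were lower in DES, at 0% to 0.332% against 2.68% to 2.85%. The part of RNA of other types in the lymphocyte values was not tested either.

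The cells that the authors left without a type, which entered no comparison, also carried target genes. Id1 was at 117 CPM in the 6611 untyped DES cells and 88.1 CPM in the 20134 untyped CO cells, and Id2 at 92.4 and 19.97 CPM. The untyped cells had a median of 2178 UMIs in DES and 4137.5 UMIs in CO.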

How the results depend on the processing

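Of 395 values for single genes under alternatives, over 52 results, 318 counted as the same. For sections this meant that direction and side of the threshold were kept, and for cells a ratio inside the main Poisson interval. Of the rest, 26 section values passed the threshold, 10 no longer did, 21 cell ratios lay outside that interval and 20 values changed sign. For cells a change of sign was counted only where the main ratio was past 2-fold. Fits without 1 section assume that the lone section of its group varies like the others. Calls over all genes also moved widely between these fits. In whole sections, where none of the members was called, DESeq2 called 2 and leaving out 1 section 0 to 4. In stromal spots, where 1 was called, DESeq2 and no filter on low counts called 2, leaving out 1 section 0 to 2, and 0 were called in the top 15% of spots by stromal score or in spots with few basal UMIs. In epithelium-rich spots (1 called), DESeq2 and no filter called 3, leaving out 1 section 0 to 5, and the top 25% of spots 2. In muscle-rich spots (2 called), leaving out 1 section gave 1 to 5, few basal UMIs 1 and the top 10% of spots 0. The lymphocyte count of 3 became 1 as a mean over cells or after thinning. In the same settings the epithelial count of 2 became 3 and the myeloid count of 4 became 3. The cause of these shifts was not tested.

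The section letters name sections, and the labels give no pairing of mice. Deviations of same-letter whole sections had r = -0.03 over 14075 genes. With 2 sections per group this value cannot settle whether the letters pair mice. With the letter as a replicate block, 1 member was called in whole sections, 2 in stromal, 3 in epithelium-rich and 2 in muscle-rich spots. Over all genes the block called 527 of 14098, 453 of 8914, 1210 of 11520 and 350 of 9980. Inhbb turned to 0.77 in stromal and 0.11 in muscle-rich spots (log2).

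Other signs turned for values not called over all 4 sections. Leaving out 1 section gave ranges of -1.77 to 0.70 (whole), -0.97 to 2.73 (stromal) and -1.49 to 1.75 (muscle-rich) for Inhbb, -0.30 to 0.50, -0.66 to 0.26 and -0.46 to 0.13 (epithelium-rich) for Bmp7, and -0.0242 to 3.10 for Inhba in epithelium-rich spots. Stromal spots by score gave 0.56 for Bmp7 and -0.65 for Id2. Spots with few basal UMIs gave -0.30 (Bmp7), 0.76 (Nog), -0.37 (Fst) and 0.12 (Id2) in whole sections and 0.0496 (Bmp7) and 0.40 (Inhbb) in stromal ones.

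Over all genes, the calls in whole sections went from 747 to 1791 with DESeq2, 24 in spots with few basal UMIs and 3 to 2819 without 1 section. In stromal spots they went from 131 to 714 without a filter, 453 with the block and 17 with few basal UMIs, in epithelium-rich spots from 864 to 1666 without a filter and 0 to 2298 without 1 section, and in muscle-rich spots from 250 to 970 without a filter, 79 and 842 at the top 10% and 25%, and 92 with few basal UMIs. The group with the highest share of cells with a UMI was kept for 9 of 10 members at 5000 UMIs and without thinning. This concerns shares of cells and not the order of levels in CPM. The planned comparison of myocytes gave no value because no DES cell bears that name. Depth limits Nog and Bmp2, which had too few UMIs for a test in all 3 groups of spots, Fst in stromal and muscle-rich spots, Bmp4 in stromal spots, and Bmp7 and Inhba in muscle-rich spots.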

Other observations

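Other genes of the pathway also had leading cell types, named here after their values were seen and among the 14 groups of at least 50 cells. In CO endothelium, where Id1 and Id3 were highest, the receptor genes Acvrl1 and Bmpr2 were at their highest levels of 207 and 209 CPM, and the BMP transducer genes Smad1 and Smad5 at 514 and 101 CPM. The receptor gene Bmpr1a was highest in DES mesothelium at 150 CPM, as was the ligand gene Bmp6 at 50.8 CPM. The ligand genes Bmp3 and Gdf10 were highest in CO stromal cells, at 68.3 and 71.7 CPM, like Bmp7, Inhba and Inhbb. Id4 was highest in CO myocytes at 229 CPM, from 251 UMIs, followed by pericytes at 204 CPM.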
